A study of Populus ussuriensis with 12 samples.

Results

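The genotype by Zn interaction asks whether excess Zn changed root RNA by a different amount in roots overexpressing PuHSFA4a than in wild-type roots. It was taken as a difference of differences over all 12 libraries of the series, the Zn response of overexpressing roots minus the Zn response of wild-type roots. The 4 groups, with 3 libraries each, were WT control, WT Zn, PuHSFA4a-OE control and PuHSFA4a-OE Zn (written OE below), as their titles give them. Each library held root RNA of in vitro *Populus ussuriensis* plants aged 21 days, a poplar of northeast Asia. After 1 week of pre-culture, plants stood for 2 weeks on control medium or on excess Zn, given in the treatment text as 1.2 mM zinc sulfate. The same text accompanies the control samples, where it was disregarded. The labels give neither the promoter of the transgene nor how many transgenic lines the OE libraries hold. Nor do they tell if replicate libraries stem from separate cultures, and p-values therefore measure the spread between these libraries, which may be technical.

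HSFA4a belongs to class A of the heat shock factors, transcription factors that bind repeated NGAAN motifs in promoters and switch on chaperone and other stress genes. In rice and wheat, HSFA4a is known for its effect on cadmium tolerance. Zn is a cofactor of many plant proteins and becomes toxic in excess, which roots meet by chelating it and moving it into vacuoles. An interaction below 0 at a gene that Zn raised means a weaker rise in OE, and an interaction above 0 at a gene that Zn lowered means a weaker fall. The files pair gene IDs with no names, so genes are given by ID without a function, and the labelled tissue could not be checked against root or shoot markers.

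The total estimated count per library ran from 15594001 to 21206585. Levels are CPM, counts scaled to a common library total after TMM adjustment, and 3 counts corresponded to 0.142 to 0.192 CPM before that scaling. Responses are log2 values of Zn over control. The filter on low counts left 25871 genes for the tests.

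The gene taken to carry the transgene's reads comes first. Potri.011G071700.v3.0 lies on the minus strand of chromosome 11, from 6828550 to 6830854, in the coordinates of the files, which are used throughout. The files do not name it, and calling it the HSFA4a locus rests on general knowledge. It stood at 331, 347 and 340 CPM in OE control and at 267, 239 and 266 CPM in OE Zn. In WT Zn it stood at 33.08, 32.55 and 33.14 CPM. The libraries labelled WT control 1 and 2 held 129 and 165 CPM, well above WT Zn, while WT control 3 held 37.1 CPM. Each OE library lay above each WT library, but 2 of the 3 WT control libraries lay between the other WT libraries and the OE libraries. The labels do not settle why, and the cause was not tested. The fitted Zn response was -1.74 in WT and -0.40 in OE, so that the interaction was 1.35 on the log2 scale (SE 0.54, edgeR quasi-likelihood unadjusted p = 0.0309, adjusted p = 0.779). Without WT control 1 and 2 the interaction was -0.23, and without WT control 3 it was 1.76 with an edgeR adjusted p of 0.000395. Its sign thus followed the choice of WT control libraries. Over 21 other settings the adjusted p ran from 0.000395 to 0.961. The results below that moved most without these libraries are given both ways.

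Among genes that responded to Zn in the average of both genotypes, about 70.4% had a smaller response in OE roots than in WT roots. In the average of the WT and OE responses, Zn changed 10355 of the genes tested (40.0%; edgeR quasi-likelihood, adjusted p under 0.05), of which 5323 (20.6%) were raised and 5032 (19.5%) lowered. Among the 5323 raised genes, 3799 (71.4%) rose less in OE than in WT. Among the 5032 lowered genes, 3487 (69.3%) fell less in OE. Among the 15516 genes not called, 8696 (56.0%) also had the smaller response in OE, taken along the sign of their average. The shares of responsive genes are to be read against that background. The median raised gene stood at 0.54 in WT and 0.43 in OE, or 1.46-fold and 1.35-fold. The median lowered gene stood at -0.50 in WT and -0.40 in OE. The mean OE response was 79.5% of the mean WT response over raised genes and 82.3% over lowered genes. A choice on the average nearly removes genes with opposite signs beforehand, and 17 raised and 11 lowered genes had them, against 5503 (35.5%) of the 15516 genes not called. These shares count genes, which are not independent replicates, and carry no test.

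**Figure D1:**
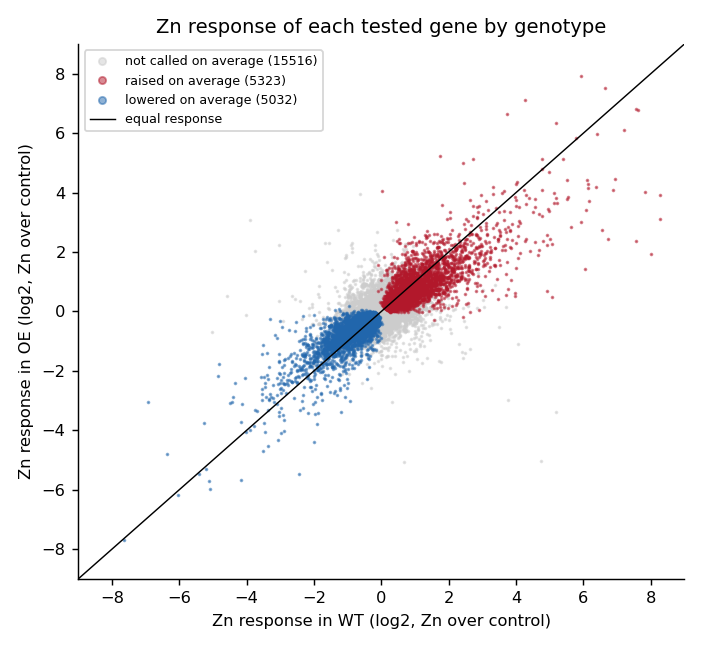
Each point is 1 of 25871 tested genes, with its Zn response in WT on the x axis and in OE on the y axis, both as log2 of Zn over control. Red points (5323) were raised and blue points (5032) lowered in the average response, grey points (15516) were not called, and the line marks equal responses. Most red points lie below the line and most blue points above it.

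How the genes were chosen bears on these shares. The average and the difference of the responses are uncorrelated when both genotypes vary equally. Among the responsive genes the mean variance within a group was 0.0596 in WT control and 0.0722 in WT Zn, against 0.0566 in OE control and 0.0603 in OE Zn, in squared log2 units. By this measure of single genes WT libraries varied slightly more, and a choice on noisier WT values favours genes with a large WT response. In the Zn score given below, OE libraries varied more. Its SD was 0.149 in OE control and 0.097 in OE Zn, against 0.082 in WT control and 0.089 in WT Zn. The effect of either spread on the shares was not tested. When genes were chosen by their call in WT (7730 genes, 29.9%), 86.0% of 3970 raised (15.3%) and 84.4% of 3760 lowered genes (14.5%) had the weaker response in OE. When they were chosen by their call in OE (4413 genes, 17.1%), a choice that favours large OE responses, 55.8% of 2203 raised (8.52%) and 54.7% of 2210 lowered genes (8.54%) had the weaker response in OE. The size depended on the choice as well. For genes called in WT the mean OE response was 67.4% of the mean WT response over raised and 69.9% over lowered genes, and for genes called in OE it was 98.1% and 98.9%. In the latter the median response was slightly larger in OE, at 0.67 against 0.66 for raised and -0.66 against -0.65 for lowered genes. Among genes called in both genotypes in the same direction, the weaker response was in OE at 69.5% of 1769 raised and 68.1% of 1774 lowered genes.

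At the level of single genes the difference did not pass the test. None of 25871 genes (0.00%) had an adjusted p under 0.05 for the interaction in the edgeR quasi-likelihood test, where the smallest adjusted p was 0.552. Of the other tools, DESeq2 called 5 genes (0.0193%) and limma-voom 0. At an unadjusted edgeR p under 0.05 stood 1627 genes (6.29%), of which 794 (3.07%) had an interaction below 0 and 833 (3.22%) above 0. The split by class was uneven. Among raised genes, 416 with such a p had the weaker and 58 the stronger rise in OE. Among lowered genes, 412 had the weaker and 59 the stronger fall in OE. Genes not called in the average response had 682 such p-values, 4.40% of 15516, against 9.13% of the 10355 responsive genes. Both tests share a gene's estimate of spread, so a choice by the average p also favours small interaction p-values. The contrast of these shares is thus partly set by the choice. A stricter description compared the 9 differences between Zn and control libraries within OE with the 9 within WT. Every OE difference lay below every WT difference at 342 genes (1.32%), and above at another 342 (1.32%). Within the raised genes 176 had all OE differences below and 23 above. Within the lowered genes 157 had all OE differences on the weaker side and 17 on the stronger side.

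The precision at single genes was limited. The median SE of an interaction was 0.21, and the median 95% interval reached 0.46 to either side, a 1.38-fold difference. For 17857 genes (69.0%) the whole interval lay within 1 log2 unit of equal responses, and so it did for 16511 of the 18708 genes (88.3%) that averaged 5 CPM or more. The Zn response was called in WT alone at 4184 of the 7730 genes called in WT (29.9% of genes tested). It was called in OE alone at 867 of the 4413 genes called in OE (17.1%). A call in a single genotype is no test of a difference, and none of these genes passed the edgeR interaction test.

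The smaller OE response was seen at every size of response. Genes whose average rise was at most 0.5 had a median response of 0.33 in WT and 0.24 in OE. Those with an average rise from 0.5 to 1 had medians of 0.75 and 0.60, and those from 1 to 2 had medians of 1.48 and 1.20. The 318 genes with an average rise above 2 had medians of 2.99 in WT and 2.34 in OE, that is 7.97-fold and 5.05-fold, and 250 of them rose less in OE. The lowered genes followed the same order, from medians of -0.33 and -0.25 at the smallest falls to -2.80 and -2.43 at the 169 largest falls. Of these 169 genes, 109 (64.5%) fell less in OE.

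**Figure D2:**
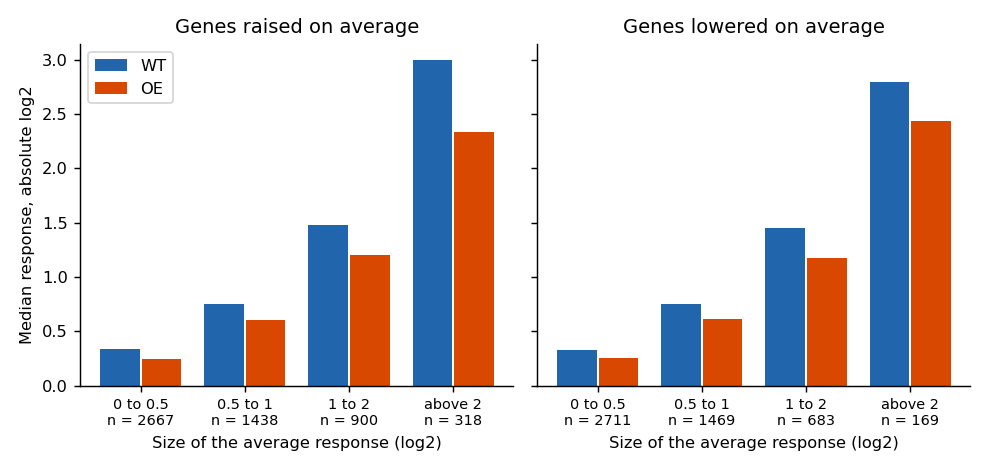
Bars give the median absolute Zn response in log2 units of WT (blue) and OE (orange) for genes grouped by the size of their average response, with the number of genes under each pair. In each of the 8 groups the OE bar is the lower one, down to 2.34 against 2.99 at the largest rises.

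The share of genes with the weaker response in OE grew with the level of the gene. With the responsive genes split into 4 equal groups by mean level, it was 63.8% up to 6.43 CPM, 67.1% and 71.8% in the next groups, and 78.8% above 49.8 CPM. Precision changed with level too. The whole interval lay within 1 log2 unit of equal responses for 88.3% of genes of at least 5 CPM, against 69.0% of all genes. Its part in the trend was not tested. Among the 19 chromosomes the share was lowest on chromosome 13 (65.8% of 336 genes) and highest on chromosome 6 (73.2% of 768 genes). Of 39 responsive genes that the files name as new, 28 had the weaker response in OE. The start of chromosome 13, up to 2.6 Mb, was described as a stretch of its own, without a test against other stretches. There the median interaction over all 259 tested genes was -0.31, with 207 genes below 0, against -0.01 over genes elsewhere. Their median response was 0.28 in WT and 0.01 in OE. Of these 259 genes, 10 (3.86%) had an unadjusted edgeR p under 0.05, below the 6.29% of all genes, and each of the 10 lay below 0. WT libraries differed among themselves there. Relative to the median of the 12 libraries at each gene, the median of the stretch was -0.11, -0.36 and -0.75 in WT control 1 to 3, 0.05 and 0.08 in WT Zn 1 and 2, and -0.78 in WT Zn 3, while the OE libraries lay from 0.05 to 0.07. Without WT control 1 and 2 the median interaction of the stretch was -0.72, and without WT control 3 it was -0.13. Both omissions kept WT Zn 3, which was low there too. The stretch was not taken without WT control 3 and WT Zn 3 together. Of the 58 responsive genes of the stretch, 40 (69.0%) had the weaker response in OE. They did not set the overall share, which was 70.4% with and without them.

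A Zn score was then computed for each library, the mean log2(CPM + 0.5) of the 5323 raised genes minus that of the 5032 lowered genes. It describes the smaller OE response by medium. The libraries labelled WT control scored -0.98, -0.92 and -1.09, and WT Zn scored 0.24, 0.28 and 0.41. The OE control libraries scored -0.66, -0.96 and -0.82, and OE Zn scored 0.20, 0.34 and 0.16. On control medium OE libraries 1 and 3 lay above the WT libraries, and OE control 2 lay within their range. On Zn, 2 OE libraries lay below the WT libraries and OE Zn 2 lay within their range, so that the genotypes overlapped in both media. The score rose by 1.31 in WT and by 1.05 in OE, and the difference of these changes was -0.26 (SE 0.12 from the spread of the 3 libraries in each group). Of that difference, 0.18 stood on control medium, where OE scored higher, and -0.08 on Zn, where OE scored lower. No SE was computed for these parts, and the genotypes overlapped in both media, so the score does not settle which medium held the difference. The genes of the score were chosen on these same libraries, so it is given without a test.

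**Figure D3:**
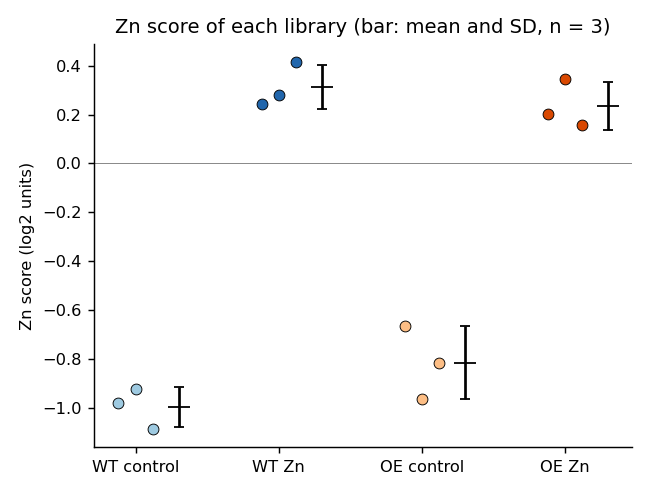
Each point is the Zn score of 1 library in log2 units, by group, with the mean and SD of 3 libraries beside the points. OE control libraries reach from -0.96 to -0.66 and WT control libraries from -1.09 to -0.92, and the ranges of WT Zn and OE Zn overlap.

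Taken gene by gene, the same genes and libraries gave the same placing, so it is no separate result. On control medium 67.8% of the raised genes were already higher in OE than in WT, with a median OE minus WT difference of 0.08, and 71.3% of the lowered genes were already lower, with a median of -0.09. On Zn the medians were smaller, at -0.04 for raised genes, of which 60.2% were lower in OE, and 0.02 for lowered genes, of which 56.0% were higher. Without WT control 1 and 2 the medians on control were 0.21 for raised genes, of which 79.0% were higher in OE, and -0.18 for lowered genes, of which 81.1% were lower. Without WT control 3 the medians were 0.07 and -0.07. Both omissions were chosen for these values and for chromosome 13 after seeing the data. Over all genes tested the medians were -0.003 on control and -0.002 on Zn. The placing was not taken without OE control 1, the OE control library with the highest Zn score. Without that library the difference in the Zn score was -0.15.

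Single libraries moved the shares without turning them. Without OE control 1, the OE control library with the highest score, 64.2% of raised and 63.4% of lowered genes had the weaker response in OE. Without OE Zn 3 the shares were 65.9% and 62.6%. Without WT control 1 and 2, which stood high at the HSFA4a locus, they were 81.4% and 79.2%, and the difference in the Zn score was -0.57. WT control then rested on 1 library, the one with the lowest score.

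**Figure D4:**
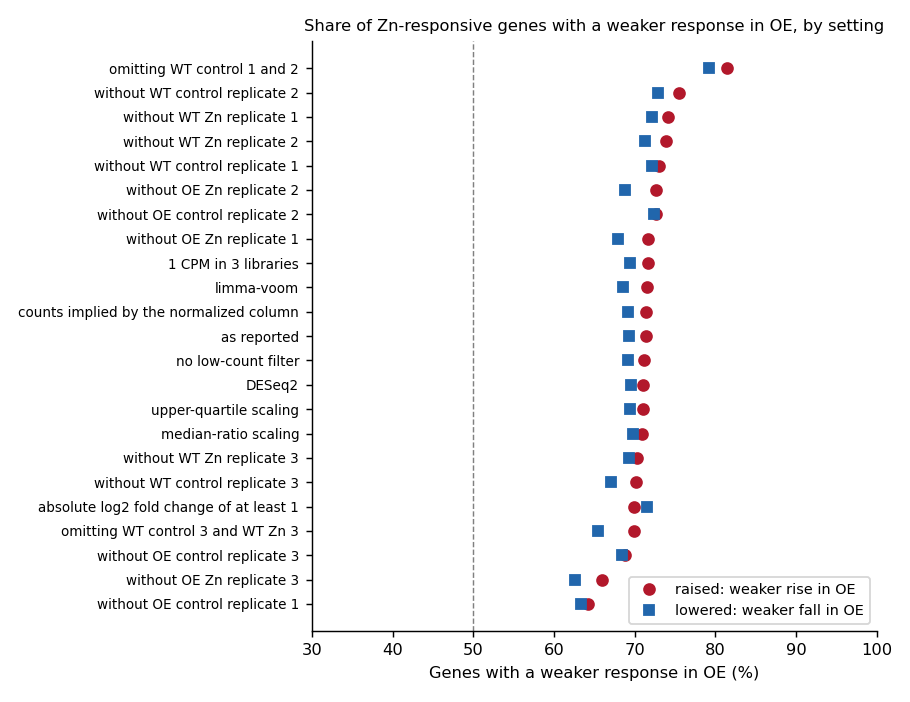
Points give the percentage of raised genes (red circles) and lowered genes (blue squares) with the weaker response in OE under each setting, with the genes chosen anew each time. The dashed line marks 50%, while genes not called stood at 56.0% in the reported setting. The shares run from 62.6% to 81.4% and lie above the line in each setting shown. Genes chosen by their call in OE, with shares of 55.8% and 54.7%, are not among these settings.

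The genes that stood out singly were of several kinds, named by a rule of smallest p in each class among genes of at least 5 CPM, together with the calls of any tool. Potri.010G070900.v3.0 (chromosome 10, 9770367 to 9772287) had the smallest p among genes of that level with a weaker rise. It stood at 81.9, 91.3 and 81.5 CPM in WT control and at 82.1, 79.5 and 91.1 CPM in OE control, where the genotypes overlap. On Zn it reached 176.5, 180.1 and 157 CPM in WT and 102, 104 and 122 CPM in OE, without overlap. The rise was 2.02-fold in WT and 1.30-fold in OE (interaction -0.64, SE 0.12, 95% interval -0.91 to -0.37, edgeR unadjusted p = 0.000216, adjusted p = 0.779). DESeq2 called it with an adjusted p of 0.0409, the lowest of 21 other settings, in which the adjusted p reached up to 0.961.

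Potri.010G045200.v3.0 (chromosome 10, 7610574 to 7611740) had the smallest p among genes of at least 5 CPM with a weaker fall. Its level fell from 8.39, 9.58 and 9.87 CPM to 4.87, 4.39 and 4.41 CPM in WT. In OE it stood at 7.396, 7.397 and 7.495 CPM on control and at 8.39, 6.12 and 6.75 CPM on Zn, where the groups overlap. The WT fall passed the test (-1.02, edgeR adjusted p = 0.000361), the OE value did not (-0.07, adjusted p = 0.782). The interaction was 0.95 (SE 0.20, edgeR unadjusted p = 0.00042, adjusted p = 0.779), with a DESeq2 adjusted p of 0.0896, again the lowest of the 21 settings up to 0.961.

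Potri.014G066500.v3.0 (chromosome 14, 5402159 to 5406848) showed a weaker fall from a lower start. In WT it went from 9.93, 7.35 and 6.73 CPM to 1.42, 1.46 and 1.20 CPM. In OE it went from 3.75, 3.73 and 3.34 CPM to 2.51, 1.72 and 2.68 CPM. OE libraries lay below WT on control and above WT on Zn, without overlap in either medium. The fall was 5.88-fold in WT and 1.57-fold in OE (interaction 1.91, SE 0.31, edgeR adjusted p = 0.552), and DESeq2 called the difference (adjusted p = 0.00352, the lowest of 21 settings up to 0.961).

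A response stronger in OE was seen at fewer genes. Potri.015G109800.v3.0 (chromosome 15, 12643249 to 12649128) stood at 21.78, 21.75 and 20.66 CPM in WT control and at 19.4, 22.6 and 18.5 CPM in WT Zn. In OE it went from 17.4, 22.3 and 19.5 CPM to 31.7, 32.5 and 30.5 CPM on Zn. The 3 OE Zn libraries lay above the other 9, which overlapped. It rose 1.60-fold in OE (edgeR adjusted p = 0.00119), and the WT response was -0.09 (adjusted p = 0.544). The interaction was 0.76 (SE 0.14, 95% interval 0.46 to 1.07, edgeR adjusted p = 0.779), called by DESeq2 (adjusted p = 0.016, the lowest of 21 settings up to 0.961). The gene overlaps Potri.015G109700.v3.0 in the files' coordinates, so reads of the pair may not be told apart.

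Potri.003G149700.v3.0 (chromosome 3, 16410950 to 16412538) had the smallest p among genes of at least 5 CPM with a stronger fall in OE. In OE it fell from 25.5, 21.8 and 26.5 CPM to 8.93, 11.7 and 10.2 CPM, a response of -1.26 (edgeR adjusted p = 0.00127). In WT it stood at 12.4, 14.1 and 7.84 CPM on control and at 11.1, 9.69 and 8.52 CPM on Zn, a response of -0.23 (adjusted p = 0.385). OE lay above WT on control without overlap, and the genotypes overlapped on Zn. The interaction was -1.02 (SE 0.27, edgeR unadjusted p = 0.00233, adjusted p = 0.779), with a DESeq2 adjusted p of 0.204, the lowest of 21 settings up to 0.961. It was -1.57 without WT control 1 and 2 and -0.81 without WT control 3, the lowest WT control library at this gene.

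**Figure D5:**
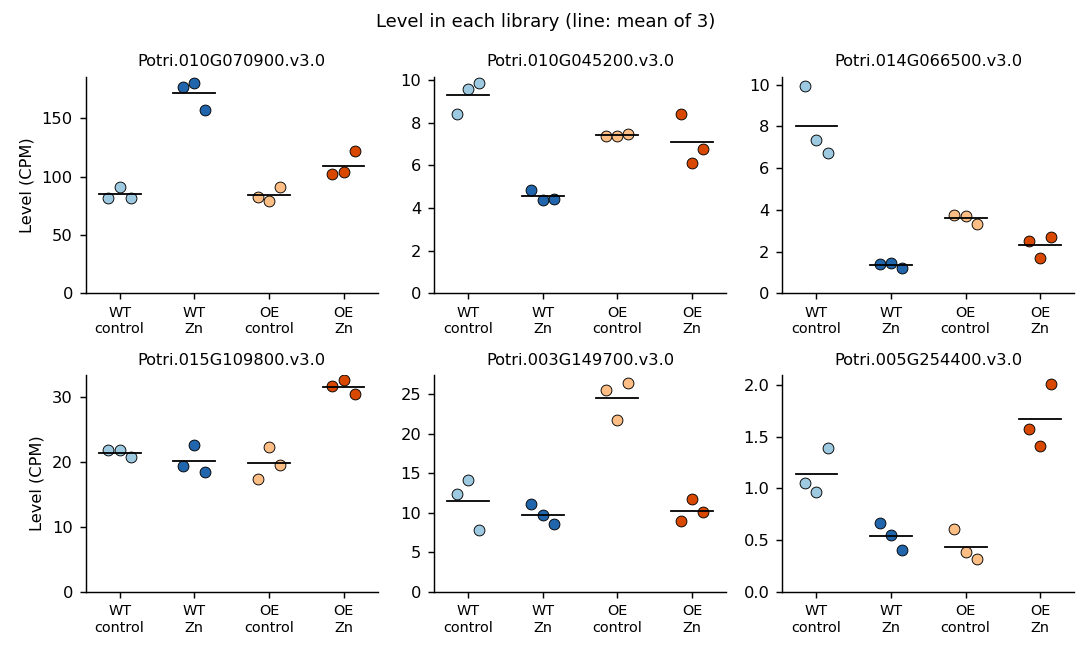
Each panel gives the level of 1 gene in CPM in the 12 libraries by group, with a line at the mean of 3 libraries. Potri.010G070900.v3.0 reaches 157 to 180.1 CPM in WT Zn against 102 to 122 CPM in OE Zn, and Potri.015G109800.v3.0 rises above the other groups in OE Zn alone.

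Zn responses were called in opposite directions in the 2 genotypes at only 3 of the 25871 genes tested, each with a mean under 1 CPM. By comparison, 1769 genes were called higher and 1774 lower in both genotypes. Potri.005G254400.v3.0 (chromosome 5, 25531410 to 25536179) went from 1.06, 0.963 and 1.39 CPM to 0.662, 0.549 and 0.401 CPM in WT. In OE it went from 0.607, 0.384 and 0.315 CPM to 1.58, 1.42 and 2.01 CPM. The summed counts were 65 and 31 in WT and 23 and 96 in OE, and the groups did not overlap in either genotype. The interaction was 2.98 (SE 0.51, edgeR adjusted p = 0.552; DESeq2 adjusted p = 0.016, the lowest of 21 settings up to 0.961).

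Potri.018G033400.v3.0 (chromosome 18, 2664452 to 2667813) moved the other way. Its summed counts over 3 libraries went from 28 to 64 in WT and from 31 to 10 in OE. In CPM it went from 0.432, 0.659 and 0.348 to 0.945, 1.40 and 1.05 in WT, and from 0.442, 0.822 and 0.504 to 0.218, 0.101 and 0.206 in OE. The Zn libraries lay on opposite sides of the control libraries in the 2 genotypes. The interaction was -2.94 (SE 0.64, edgeR adjusted p = 0.779; DESeq2 adjusted p = 0.175, the lowest of 20 settings up to 0.961).

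Populus_trichocarpa_newGene_903 (chromosome 18, 6579654 to 6582019) is a locus that the files name as new. It had 65, 39 and 18 counts in WT Zn against 1 count in each WT control library. In OE it had 1, 19 and 12 counts on control and 1 count in each library on Zn. In the 7 libraries listed with 1 count the authors' normalized value was at most 0.0129, except for 0.404 in WT control 2. The counts that the normalized values imply, rounded to whole numbers, sum to 120 in WT Zn and 0 in WT control, and to 31 in OE control and 0 in OE Zn. Set against a floor of 3 counts over the group, these sums stood 39.3-fold higher on Zn in WT and 11.3-fold lower on Zn in OE. The counting error of the higher sums was left out, so these folds are no lower limits. OE control 1, with 1 count, stood apart from the other OE control libraries. DESeq2 called the difference (adjusted p = 0.000487, from 0.000487 to 0.961 over 21 settings), edgeR gave an adjusted p of 0.552, and without OE control 1 edgeR called it (adjusted p = 0.0173).

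A pair of loci was taken as related to HSFA4a on the same general knowledge, Potri.004G062300.v3.0 and, on chromosome 14, Potri.014G141400.v3.0. Their interactions were 0.21 (95% interval -0.07 to 0.50) and -0.07 (-0.39 to 0.24), with edgeR adjusted p-values of 0.790 and 0.939. The first overlaps Potri.004G062200.v3.0. In CPM the first stood at 46.1, 48.1 and 43.3 in WT control, 41.1, 38.1 and 35.2 in WT Zn, 39.4, 43.5 and 40.6 in OE control and 38.4, 35.7 and 45.0 in OE Zn, with overlap between genotypes in both media. The second stood between 13.62 and 15.78 CPM in the WT libraries and between 15.83 and 19.9 CPM in the OE libraries, without overlap between genotypes.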

How the data were processed

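The deposited files, 1 per library, hold for each of 39602 genes (39379 with *P. trichocarpa* v3.0 IDs and 223 named as new) an estimated count, an FPKM value and a normalized signal of the authors. The submitters' processing notes list TopHat2 2.1.1 and HTSeq 0.6.0, while the sources used here give no genome build or strand setting. The deposited count equals the value that the authors' normalized signal implies (within 0.02) for 64.1% to 65.7% of detected genes and is 1 above it for 30.7% to 32.1%. Counts were used as deposited, and the FPKM values of the authors were not used.

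Tests used R 4.3.3 and edgeR 4.0.16 (filterByExpr, TMM, robust quasi-likelihood F-test, 4 group means, 8 residual degrees of freedom, Benjamini-Hochberg over 25871 genes, threshold 0.05). The fit was also run on simulated counts with interactions of 1 log2 unit or more. The median interactions of raised and lowered genes were smaller, at -0.12 and 0.10, so that run does not bear on detecting them. The biological coefficient of variation was 14.2%. SEs are the absolute log2 value divided by the square root of F. Alternatives were DESeq2 1.42.0, limma-voom (limma 3.58.1), upper-quartile and median-ratio scaling, no filter, 1 CPM in 3 libraries, a minimum absolute average response of 1 for the responsive genes, leaving out each library, leaving out WT control 1 and 2, and leaving out WT control 3 and WT Zn 3. Counts implied by the normalized signal, and medians and scores under all settings, were added after seeing the data.

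Named genes are the HSFA4 loci, the calls of any tool, genes called in opposite directions and, per class of weaker or stronger rise or fall, the gene of at least 5 CPM with the smallest p. With no names for the IDs, 1 gene per class was taken, genes without an average response were not named, and the gene lists by function, the marker check and the promoter search could not be run. The comparison, the lists and the alternatives were chosen with earlier results of these data known.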

Additional observations from a re-analysis of the deposited data

Results flagged for a closer look

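At 6 of the 25871 genes tested the Zn response differed between the genotypes by a DESeq2 interaction call or by calls in opposite directions. None of the 6 passed the edgeR interaction test. The edgeR interaction was -0.64 at Potri.010G070900.v3.0, where the rise on Zn was smaller in OE. It was 1.91 at Potri.014G066500.v3.0, where the fall was smaller in OE. At Potri.015G109800.v3.0 it was 0.76, with a rise called in OE and not in WT. Potri.005G254400.v3.0 had an interaction of 2.98, with a fall in WT and a rise in OE, and Potri.018G033400.v3.0 had -2.94, with a rise in WT and a fall in OE. At Populus_trichocarpa_newGene_903 the fitted value was -8.58, which depends on how the fit treats counts of 1 and is no measured size. With the counts implied by the normalized signal it was -14.8.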

How the results depend on the processing

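No paired analysis was possible because the labels give no replicate numbers shared between groups. The number of interaction calls was 0 in 16 of 21 other settings, 5 with DESeq2, 1 without WT control 3 and WT Zn 3 together, and 0 to 1 when each library was left out. The 1 gene was the HSFA4a locus without WT control 3 (with or without WT Zn 3), Populus_trichocarpa_newGene_903 without OE control 1 and Potri.010G037700.v3.0 without WT Zn 2. Genes at an unadjusted p under 0.05 numbered 2957 without WT control 1 and 2, and 1159 to 1957 when each library was left out. Calls of the Zn response in WT fell to 4866 without WT control 1 and 2, and ran from 6028 to 7857 without single libraries. Those in OE ran from 2200 without OE control 2 to 4765, with 2689 without OE Zn 1, 2742 without OE Zn 2 and 2741 without OE control 3. The shares of raised and lowered genes with the weaker response in OE were 81.4% and 79.2% without WT control 1 and 2, 69.9% and 65.4% without WT control 3 and WT Zn 3, and 69.951% and 71.5% for average responses of at least 1. When each library was left out they ran from 64.2% to 75.4% and from 62.6% to 72.9%. The difference in the Zn score ran from -0.34 to -0.15 without single libraries, and was -0.49 for average responses of at least 1. Interactions that changed sign were the HSFA4a locus (-0.23 without WT control 1 and 2) and Potri.014G141400.v3.0 (0.0018 without WT control 1 and 2, 0.0204 without OE control 3). The causes were not tested. Where WT control rested on 1 library, that library was assumed to vary like the other groups. Depth limits Populus_trichocarpa_newGene_903, with at most 65 counts in a library.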

Other observations

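Potri.010G037700.v3.0 (chromosome 10, 6448007 to 6451912) was called by edgeR in 1 setting and was chosen after its values were seen. It had 0 counts in WT Zn 1 and WT Zn 3 and 1.89 CPM in WT Zn 2. In WT control it stood at 1.25, 1.88 and 2.09 CPM, in OE control at 5.52, 5.53 and 4.03 CPM and in OE Zn at 6.43, 5.11 and 4.79 CPM. Each OE library lay above each WT library. Its interaction was 1.70 (SE 1.16, edgeR adjusted p = 0.798). Without WT Zn 2 the edgeR adjusted p was 0.0434, from 0.0434 to 0.961 over 21 settings, and the fitted value there was set by libraries at 0.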
